A study of Homo sapiens with 12 samples.

Results

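The 42 genes described here carry fatty acid metabolism and the storage of fat in lipid droplets, and were picked by symbol from the 62702 genes of the count table. No threshold on a measured value enters the choice, but the list was drawn up with earlier results of these data known. All 42 were found. They fall into 6 roles, which are the making of fatty acids (13 genes), their activation (3), their uptake (5), the building of triglycerides (6), lipid droplets and lipolysis (9), and mitochondrial oxidation (6). RNA was read by BRB-seq, a pooled method in which each sample gets its own barcode and transcripts are counted from their 3′ ends, in 786-O, an established line of clear cell renal cell carcinoma (ccRCC) without functional VHL. The 12 libraries form 4 groups of 3. shHIF2A cells carry a doxycycline-inducible shRNA against HIF2A (gene EPAS1), shJUNs cells against JUN, JUNB and JUND, and shYAPTAZ cells against YAP and TAZ (genes YAP1 and WWTR1). The fourth group is the parental line. All 4 groups received doxycycline for 72 hours, and the derived lines had been selected with puromycin, blasticidin or hygromycin. None of the 4 groups is a line with a control shRNA, and the count table holds no columns of other samples. The labels call the replicates technical, so every p-value measures only the spread between these libraries and none covers the spread between independently made lines.

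Cells make palmitate from cytosolic citrate, lengthen and desaturate it, activate it to acyl-CoA, and then either esterify it to glycerol for storage as triglyceride in droplets or import it into mitochondria for oxidation. The droplet is coated by perilipins, and its triglyceride is cut in turn by the lipases of PNPLA2, LIPE and MGLL. ccRCC is named for the clear cytoplasm that stored lipid and glycogen leave in stained sections. In tumours without VHL, HIF2A is stable, and PLIN2, HILPDA and VLDLR are among the genes described as activated by hypoxia-inducible factors.

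Total counts per library ranged from 2272459 to 4469956, a 1.97-fold range, and mitochondrial transcripts took 6.33% to 9.37% of them. Levels are given as CPM, counts per 1000000 counts of a library after TMM scaling over the 12301 genes tested, and are not corrected for gene length, so they compare 1 gene between groups. Each target was lower in its own line. EPAS1 was at 11.9, 17.5 and 18.6 CPM in shHIF2A, 36.6, 38.5 and 36.2 in shJUNs, 172, 109.8 and 58.6 in shYAPTAZ, against 267, 194 and 148 in parental cells; it was lower in all 3 lines (12.7-fold lower, 5.47-fold lower and 1.8-fold lower, edgeR adjusted p = 6.38e-07, 1.78e-05 and 0.0361). JUND was at 39.5, 34.2 and 42 CPM in shJUNs against 310.3, 390.2 and 366 in parental cells (9.2-fold lower, adjusted p = 1.41e-11), and YAP1 at 21.8, 10.2 and 10.4 CPM in shYAPTAZ against 66.7, 58.2 and 71.2. JUN fell 1.79-fold, JUNB 1.7-fold with overlapping libraries, and WWTR1 2.04-fold in their own lines. Targets of 1 line also differed in others. JUN was at 80.6, 80.5 and 79.5 CPM in shHIF2A and 78.1, 85.7 and 93 in shJUNs, against 137, 172 and 149.5 in parental cells, and was 1.91-fold lower in shHIF2A (adjusted p = 0.00103). JUND was also lower in shHIF2A (1.61-fold, 0.00312) and shYAPTAZ (2.09-fold, 2.71e-05), and WWTR1 was 1.62-fold higher in shHIF2A (0.00181) and 1.42-fold higher in shJUNs (0.0169). All 7 renal markers passed the filter. PAX8 averaged 99.7 ± 3.54 CPM in shHIF2A, 99.2 ± 14.6 in shJUNs, 101 ± 11 in shYAPTAZ and 88.9 ± 8.09 in parental cells (SD, n = 3 each) and gave no call. LHX1 averaged 37.3 ± 9.61 CPM in shHIF2A, 17.6 ± 2.82 in shJUNs, 56.6 ± 20.5 in shYAPTAZ and 88.5 ± 4.19 in parental cells and was lower in shHIF2A (2.37-fold, adjusted p = 0.00145) and shJUNs (4.99-fold, 1.68e-06). PAX2 averaged 7.42 ± 5.12 CPM in shHIF2A, 5.75 ± 1.99 in shJUNs, 6.21 ± 3.23 in shYAPTAZ and 12.7 ± 6.02 in parental cells, with adjusted p = 0.367, 0.163 and 0.193. The summed level of the 7, mostly VIM, was 9307 to 9959 CPM in shHIF2A, 13254 to 13938 in shJUNs, 14697 to 15019 in shYAPTAZ and 13681 to 17222 in parental cells. Markers of adipocytes (3 of 8 with any count), macrophages (4 of 6) and endothelium (2 of 4) summed to at most 2.72 CPM in any library; ADIPOQ, LEP, CIDEA, CIDEC, PLIN4, LYZ, TREM2, PECAM1 and CDH5 were at 0. Hepatocyte markers (3 of 5 with a count, APOA1 and TTR at 0) summed to 41.7 to 57.5 CPM in shHIF2A, 76.3 to 98.3 in shJUNs, 93.7 to 149.8 in shYAPTAZ and 91.4 to 112 in parental cells. The part of these markers, and of the targets that differ across lines, in the results was not tested.

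PLIN2, HILPDA, MGLL, DGAT1, ACSL3 and FADS1 fell in each knockdown line, ABHD5 and FABP5 rose in each, and the 6 oxidation genes gave no call. Over all genes, 18.6% were called in shHIF2A, 19.3% in shJUNs and 25.3% in shYAPTAZ. A lack of calls among 6 genes therefore does not set oxidation apart. Of the 42 genes, 40 had a count in some library and 36 passed the filter on low counts. In shHIF2A, 6 of the 36 were higher than in parental cells and 7 lower, where 9.84% of all genes tested were called higher and 8.8% lower (edgeR's quasi-likelihood test, Benjamini-Hochberg adjusted p under 0.05 over all 12301 genes). In shJUNs, 3 were higher and 9 lower, where 10.3% and 8.93% of all genes were called. In shYAPTAZ, 3 were higher and 11 lower, where 13% and 12.3% of all genes were called. The median log2 change of the 36 genes was 0.04 in shHIF2A, -0.19 in shJUNs and -0.41 in shYAPTAZ, beside 0.01, -0.00 and 0.02 over all genes tested. The test for any difference among the 4 groups was passed by 21 of the 36 genes, against 38.7% of all genes. Libraries of the 2 groups did not overlap for 14 of the 36 genes in shHIF2A against parental cells (36.1% of all genes), for 19 in shJUNs (39.5%) and for 20 in shYAPTAZ (36.2%). The count of higher genes in shHIF2A was 3 without shHIF2A replicate 1 and 3 without parental replicate 1. The 3 comparisons share the parental libraries, and in bulk RNA fewer cells of a kind and less RNA per cell cannot be told apart. The 3 derived lines also all carry shRNA constructs and had been drug-selected. A change seen in all 3 therefore cannot be told apart from an effect of deriving a line.

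**Figure D1:**
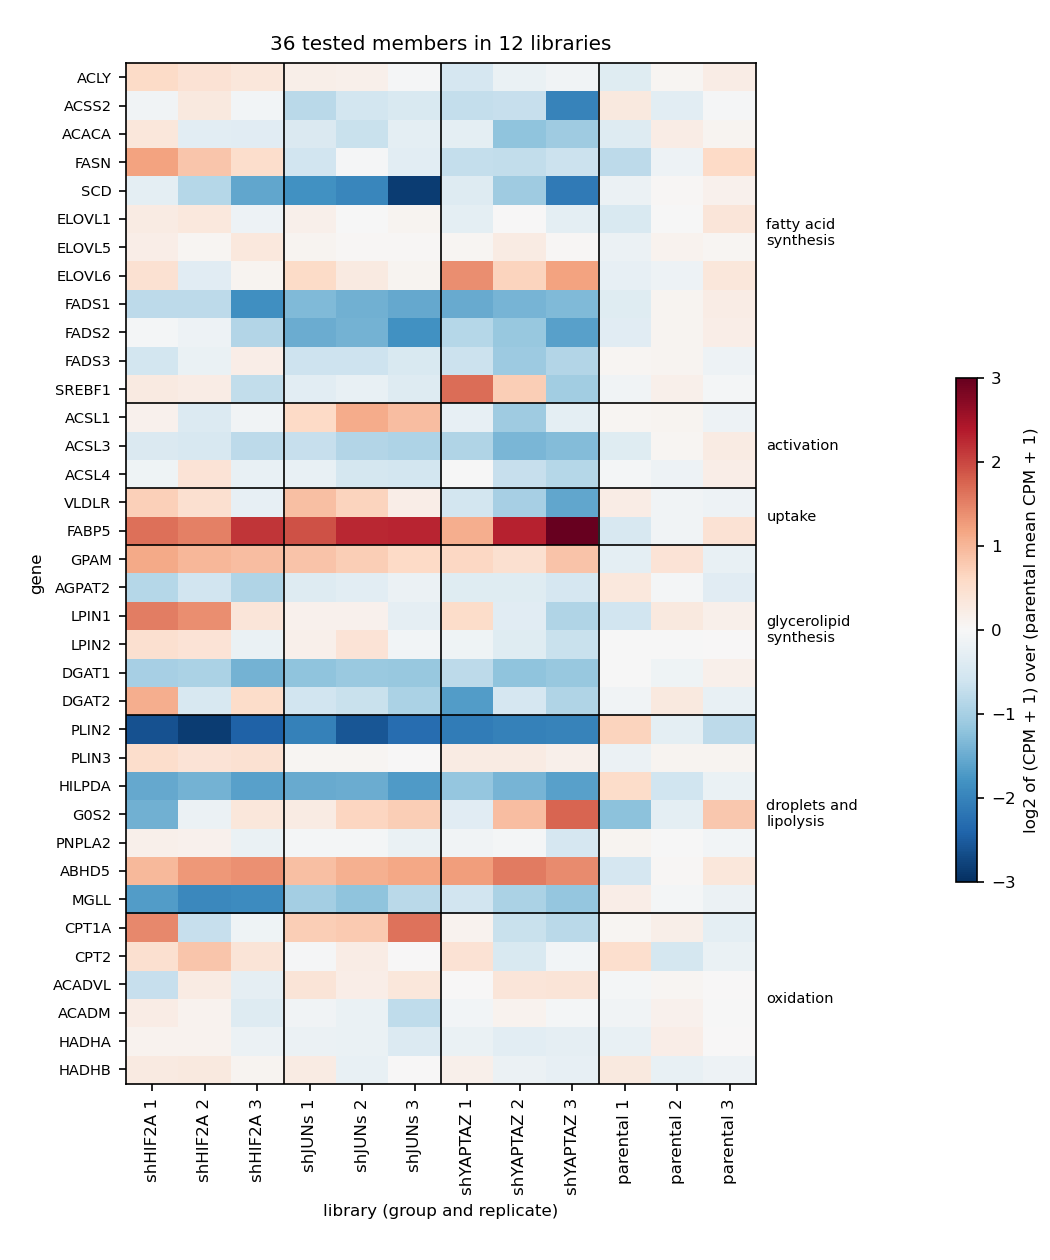
Log2 ratio of each library's CPM plus 1 to the parental mean CPM plus 1, for the 36 tested genes (down the page, by role) in the 12 libraries (across, by group). Blue fields run across the 9 knockdown libraries for PLIN2, HILPDA, MGLL, FADS1, ACSL3 and DGAT1, and red ones for ABHD5 and FABP5.

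By role, the calls against parental cells stand beside 18.6% of all genes called in either direction in shHIF2A, 19.3% in shJUNs and 25.3% in shYAPTAZ. Among 12 tested genes of fatty acid synthesis, 1 was higher and 1 lower in shHIF2A, 0 higher and 4 lower in shJUNs, and 1 higher with 5 lower in shYAPTAZ, with median log2 changes of 0.02, -0.39 and -0.79 in that order of lines. The share of synthesis genes called was 16.7% in shHIF2A, near that of all genes, 33.3% in shJUNs and 50% in shYAPTAZ. Among 7 tested droplet and lipolysis genes, 2 were higher and 3 lower in shHIF2A, and 1 was higher and 3 lower in each of shJUNs and shYAPTAZ. Of 6 genes of triglyceride building, 2 were higher and 2 lower in shHIF2A, and 1 was lower in each other line. Of the 36 genes, 6 were lower in all 3 lines (FADS1, ACSL3, DGAT1, PLIN2, HILPDA and MGLL), as were 2.85% of all genes tested. A further 2 were higher in all 3 lines (ABHD5 and FABP5), as were 3.18% of all genes. In all, 21 were called in at least 1 line, against 39.5% of all genes, and 15 in none.

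**Figure D2:**
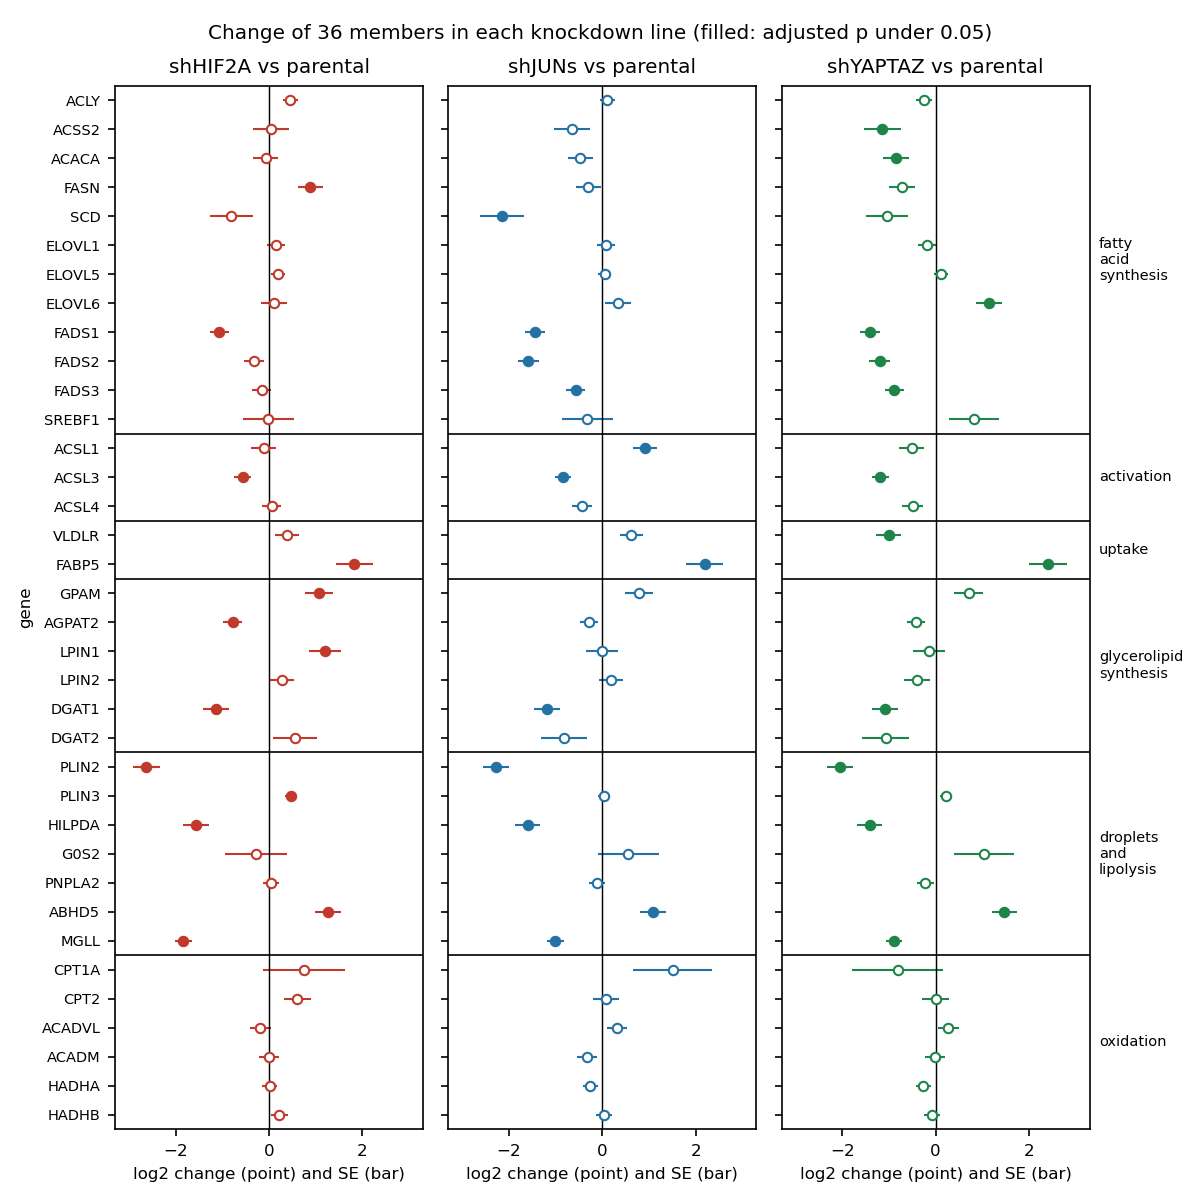
Log2 change against parental cells with its SE for the 36 tested genes, in shHIF2A, shJUNs and shYAPTAZ from left to right; filled points passed an adjusted p under 0.05. PLIN2 has the lowest log2 change in each panel (-2.63, -2.29 and -2.05), and all 6 oxidation genes at the foot are open points.

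PLIN2, the perilipin that coats droplets in most cell types other than fat cells (ENSG00000147872, chromosome 9, 19108375 to 19149290, minus strand, hg38), was the droplet gene with the largest fall. It was at 101, 85.5 and 116 CPM in shHIF2A, 152, 103 and 126 in shJUNs, 145, 152 and 154 in shYAPTAZ, against 995, 506 and 362 in parental cells. The knockdown libraries all lay below the lowest parental one. The fall was 6.17-fold in shHIF2A (log2 -2.63 ± 0.29 SE, adjusted p = 1.35e-05), 4.88-fold in shJUNs (log2 -2.29 ± 0.28 SE, adjusted p = 3.69e-05) and 4.13-fold in shYAPTAZ (log2 -2.05 ± 0.28 SE, adjusted p = 6.60e-05). The parental libraries themselves spread 2.75-fold, and EPAS1 was also highest in parental replicate 1, the library with the most PLIN2. Without that library the log2 changes were -2.12, -1.77 and -1.53 and all 3 calls held (adjusted p = 4.89e-08, 5.43e-07 and 2.24e-06). EPAS1 fell from replicate 1 to replicate 3 in both parental cells and shYAPTAZ. PLIN2 fell likewise in parental cells but not in shYAPTAZ (145, 152 and 154 CPM). Replicate 1 of shYAPTAZ had more EPAS1 than parental replicate 3 but less PLIN2 (145 against 362 CPM). The part of the EPAS1 level in the PLIN2 differences was not tested. Differences in PLIN2 between the knockdown lines gave adjusted p-values of 0.525 (shJUNs against shHIF2A), 0.169 (shYAPTAZ against shHIF2A) and 0.626 (shYAPTAZ against shJUNs).

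Of the tested genes that regulate or encode the first triglyceride lipase, HILPDA fell and ABHD5 rose in all 3 lines, and PNPLA2 and G0S2 passed no test. HILPDA, which inhibits the lipase of PNPLA2 (ENSG00000135245, chromosome 7, 128455849 to 128458418, plus strand), was at 21.7, 23.7 and 20.3 CPM in shHIF2A, 22.2, 22.4 and 19.4 in shJUNs, 28.6, 24.2 and 20.5 in shYAPTAZ, against 95.6, 42.5 and 56.8 in parental cells. It was 2.95-fold lower in shHIF2A, 3.03-fold lower in shJUNs and 2.67-fold lower in shYAPTAZ, with no overlap (adjusted p = 0.000363, 0.000234 and 0.000551). ABHD5, the co-activator of the same lipase (ENSG00000011198, chromosome 3, 43690108 to 43734371, plus strand), was at 26.7, 34 and 35.4 CPM in shHIF2A, 25.3, 28.6 and 30.8 in shJUNs, 32.7, 41.1 and 36.6 in shYAPTAZ, against 9.07, 13.5 and 17 in parental cells. It rose 2.41-fold (log2 1.27 ± 0.27 SE, adjusted p = 0.0023), 2.13-fold (log2 1.09 ± 0.27 SE, adjusted p = 0.00661) and 2.78-fold (log2 1.47 ± 0.27 SE, adjusted p = 0.000358) in shHIF2A, shJUNs and shYAPTAZ, again with no overlap. PNPLA2 itself, the first triglyceride lipase, gave no call, at 85.9 ± 11.6 CPM in shHIF2A, 77.2 ± 4.36 in shJUNs, 71.8 ± 11.8 in shYAPTAZ and 83.5 ± 4.81 in parental cells (SD, n = 3 each; adjusted p = 0.902, 0.719 and 0.4 against parental). G0S2, another PNPLA2 inhibitor, ranged widely inside groups and gave no call, at 23.2, 56.8 and 81.3 CPM in shHIF2A, 76.1, 101 and 109 in shJUNs, 50.8, 123 and 219 in shYAPTAZ, against 26.9, 52.3 and 114 in parental cells (adjusted p = 0.825, 0.616 and 0.292).

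MGLL, the lipase that frees the last fatty acid from monoacylglycerol (ENSG00000074416, chromosome 3, 127689062 to 128052190, minus strand), was at 73.6, 62.1 and 64.1 CPM in shHIF2A, 117, 102 and 137 in shJUNs, 159, 124 and 106 in shYAPTAZ, against 275, 229 and 211 in parental cells. It was lower in every knockdown library than in any parental one, by 3.58-fold in shHIF2A (log2 -1.84 ± 0.18 SE, adjusted p = 2.86e-07), 2.01-fold in shJUNs (log2 -1.004 ± 0.17 SE, adjusted p = 0.000278) and 1.85-fold in shYAPTAZ (log2 -0.89 ± 0.17 SE, adjusted p = 0.000651). The lines also differed from one another: MGLL was 1.78-fold higher in shJUNs than in shHIF2A (adjusted p = 0.00459) and 1.94-fold higher in shYAPTAZ than in shHIF2A (adjusted p = 0.000614), each without overlap. PLIN3, a perilipin that moves between cytosol and droplets, went the other way from PLIN2 in shHIF2A. It was at 390.4, 364 and 377 CPM in shHIF2A, 282, 284 and 274 in shJUNs, 326, 323 and 301 in shYAPTAZ, against 243, 288 and 287 in parental cells. The rise in shHIF2A was 1.38-fold (log2 0.47 ± 0.12 SE, adjusted p = 0.0107), while shJUNs and shYAPTAZ gave adjusted p-values of 0.876 and 0.222. PLIN3 was 1.35-fold lower in shJUNs than in shHIF2A (adjusted p = 0.0345), a call lost without shHIF2A replicates 1 (0.115), 2 (0.0957) and 3 (0.0831), shJUNs replicates 1 (0.123), 2 (0.117) and 3 (0.142), shYAPTAZ replicate 2 (0.0546) or parental replicate 2 (0.0551), or with no filter on low counts (0.113). CIDEC, a droplet fusion factor of fat cells, had no count in any library, where 3 counts equal 0.67 to 1.32 CPM before TMM scaling. LIPE, the hormone-sensitive lipase, reached at most 1.41 CPM and was not tested.

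**Figure D3:**
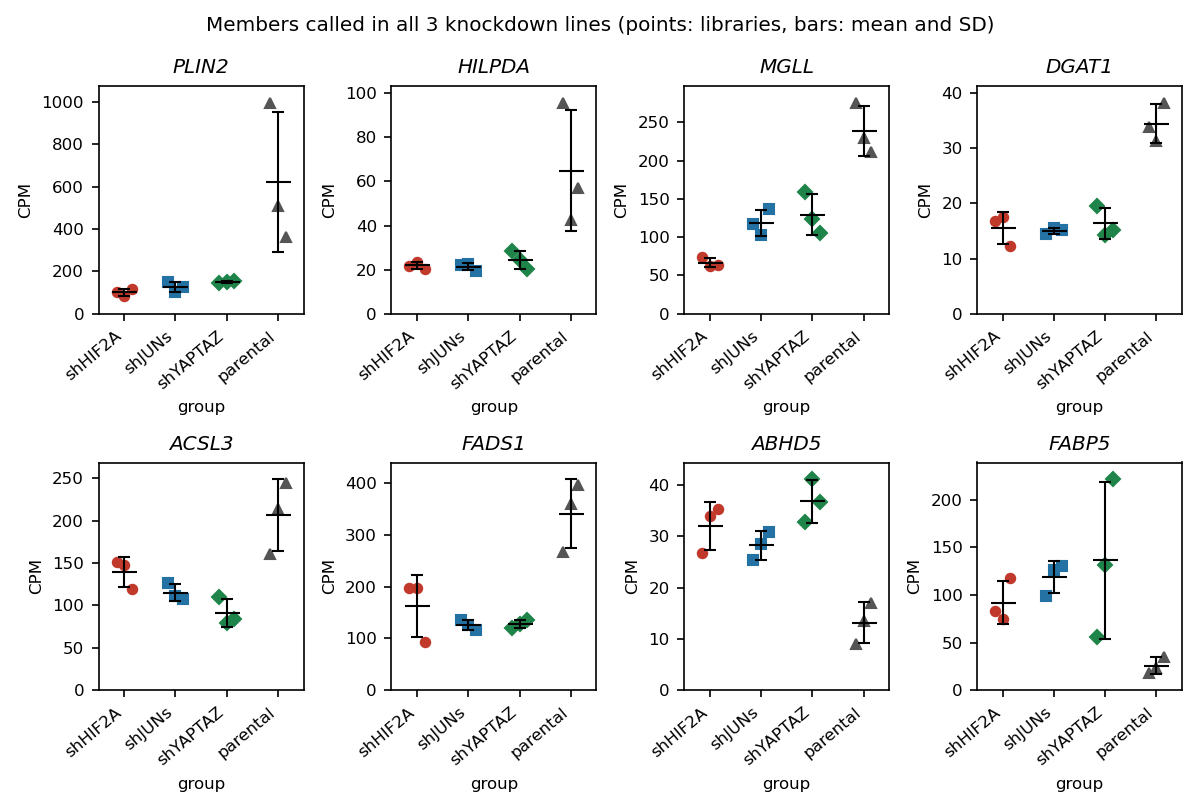
CPM of the 8 genes called in all 3 knockdown lines, with 1 point per library and bars for the mean and SD of 3 libraries, in shHIF2A, shJUNs, shYAPTAZ and parental cells. In each panel the knockdown points lie on 1 side of the parental ones, below for PLIN2, HILPDA, MGLL, DGAT1, ACSL3 and FADS1 and above for ABHD5 and FABP5.

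Promoter sequences were taken from RefSeq (GRCh38.p14) for the genes called in all 3 lines, of which 4 of 8 matched a window (PLIN2, FADS1, ACSL3 and ABHD5). They are shown because each of the 8 genes moved the same way in every line. The windows run from 250 bases before to 50 bases after a RefSeq start site and are written 5′ to 3′ on the gene's strand; of 3 windows of ABHD5, that nearest to the start of the deposited gene span is given. Capitals mark the hypoxia response cores ACGTG and GCGTG, the TEAD motif GGAATG and the AP-1 motif TGANTCA, searched on both strands.
PLIN2, chr9:19127443-19127742, minus strand: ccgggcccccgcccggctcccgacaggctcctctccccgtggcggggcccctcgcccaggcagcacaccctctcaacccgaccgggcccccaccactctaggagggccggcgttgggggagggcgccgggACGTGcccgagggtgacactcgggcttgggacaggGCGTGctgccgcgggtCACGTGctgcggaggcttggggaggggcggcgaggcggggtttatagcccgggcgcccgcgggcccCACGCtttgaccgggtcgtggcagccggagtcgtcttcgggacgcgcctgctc
FADS1, chr11:61816954-61817253, minus strand: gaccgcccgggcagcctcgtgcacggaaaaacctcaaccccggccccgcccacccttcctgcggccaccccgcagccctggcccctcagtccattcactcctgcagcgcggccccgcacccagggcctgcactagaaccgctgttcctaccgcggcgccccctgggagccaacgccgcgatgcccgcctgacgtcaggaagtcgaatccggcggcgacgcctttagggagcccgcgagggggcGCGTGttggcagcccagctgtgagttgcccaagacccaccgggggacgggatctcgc
ACSL3, chr2:222860786-222861085, plus strand: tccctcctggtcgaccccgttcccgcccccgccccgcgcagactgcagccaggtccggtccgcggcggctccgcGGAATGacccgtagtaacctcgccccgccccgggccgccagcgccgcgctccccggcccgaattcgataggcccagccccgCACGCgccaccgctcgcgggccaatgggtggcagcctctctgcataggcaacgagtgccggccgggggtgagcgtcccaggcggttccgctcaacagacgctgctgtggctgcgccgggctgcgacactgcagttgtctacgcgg
ABHD5, chr3:43690620-43690919, plus strand: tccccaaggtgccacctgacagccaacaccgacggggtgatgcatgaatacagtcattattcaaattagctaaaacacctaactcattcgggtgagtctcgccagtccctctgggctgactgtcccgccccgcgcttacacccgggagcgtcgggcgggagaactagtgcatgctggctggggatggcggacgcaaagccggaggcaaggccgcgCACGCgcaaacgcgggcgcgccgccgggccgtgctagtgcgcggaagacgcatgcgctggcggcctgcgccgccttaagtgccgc
The PLIN2 window held 3 matches of ACGTG and 2 of GCGTG; 2 of the ACGTG matches are the 2 strands of 1 E-box CACGTG. The FADS1 and ABHD5 windows each held 1 GCGTG, and the ACSL3 window 1 GCGTG and 1 GGAATG. None of the 4 windows held TGANTCA. Over the table, ACGTG stood in 21.4% of 35116 windows, GCGTG in 36.5%, TGANTCA in 7.71% and GGAATG in 14%. Of the 42 genes, 35 had a window, and their 58 windows held ACGTG in 17.2%, GCGTG in 50%, TGANTCA in 8.62% and GGAATG in 8.62%. A match describes these letters only. The PLIN2 and FADS1 start sites lie 21798 and 12315 bases inside the gene spans of the deposited table, which begin at a more upstream end.

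Of the genes of triglyceride building, DGAT1 fell in every line. DGAT1, 1 of the 2 enzymes that add the last fatty acid to diacylglycerol (ENSG00000185000, chromosome 8, 144314584 to 144326910, minus strand), was at 16.8, 17.5 and 12.3 CPM in shHIF2A, 14.4, 15.5 and 15.2 in shJUNs, 19.5, 14.3 and 15.2 in shYAPTAZ, against 33.9, 31.2 and 38.2 in parental cells. The fall was 2.21-fold in shHIF2A (log2 -1.14 ± 0.28 SE, adjusted p = 0.00603), 2.29-fold in shJUNs (log2 -1.19 ± 0.28 SE, adjusted p = 0.00373) and 2.12-fold in shYAPTAZ (log2 -1.08 ± 0.28 SE, adjusted p = 0.00623), with no overlap. DGAT1 shares 137 exonic bases with HSF1 on the opposite strand, and the sources used here do not say how such reads were assigned. DGAT2, the other enzyme of this step, averaged 14 ± 7.31 CPM in shHIF2A, 5.36 ± 0.791 in shJUNs, 4.41 ± 2.05 in shYAPTAZ and 9.48 ± 2.05 in parental cells (SD, n = 3 each). It passed no test against parental cells, but was 3.11-fold lower in shYAPTAZ than in shHIF2A (adjusted p = 0.0245), a call lost without shHIF2A replicates 1 (0.158) and 3 (0.0554) or shYAPTAZ replicate 1 (0.0802), or with limma-voom (0.0612) or only the 6 libraries compared (0.0645).

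The calls at the earlier steps were in shHIF2A. GPAM, which adds the first fatty acid to glycerol phosphate in mitochondria (ENSG00000119927), was at 26.1, 23.7 and 22.4 CPM in shHIF2A, 21.5, 19.8 and 17.9 in shJUNs, 18.2, 16.2 and 21.4 in shYAPTAZ, against 9.07, 15.5 and 9.61 in parental cells. All 9 knockdown libraries lay above the parental ones, and shHIF2A passed the test (2.1-fold higher, log2 1.07 ± 0.30 SE, adjusted p = 0.0164), whereas shJUNs (adjusted p = 0.0736) and shYAPTAZ (0.0992) did not. LPIN1, a phosphatidate phosphatase and transcriptional co-activator (ENSG00000134324), was at 163, 148 and 72.2 CPM in shHIF2A, 60.8, 61.2 and 45.8 in shJUNs, 82.2, 43.6 and 29.4 in shYAPTAZ, against 37.3, 68.3 and 61.9 in parental cells. It was 2.28-fold higher in shHIF2A (log2 1.19 ± 0.34 SE, adjusted p = 0.0238), without overlap. AGPAT2, the next acyltransferase (ENSG00000169692), was at 45.5, 55.5 and 44.5 CPM in shHIF2A, 64.1, 67 and 74.4 in shJUNs, 64.9, 64.3 and 58.6 in shYAPTAZ, against 104, 80.4 and 66.1 in parental cells. It was 1.72-fold lower in shHIF2A (log2 -0.78 ± 0.19 SE, adjusted p = 0.00713), with adjusted p = 0.329 in shJUNs and 0.124 in shYAPTAZ. Neither GPAM nor AGPAT2 was called between lines. Against shHIF2A, GPAM gave edgeR adjusted p = 0.625 in shJUNs and 0.439 in shYAPTAZ, and AGPAT2 gave 0.13 and 0.214. The 3 calls against parental cells (GPAM, LPIN1 and AGPAT2 in shHIF2A) were each lost without certain single libraries. GPAM lost its call without shHIF2A replicate 1 (0.054) or parental replicates 1 (0.0718) and 3 (0.0613), LPIN1 without shHIF2A replicates 1 (0.0873) and 2 (0.0813) or parental replicates 1 (0.113) and 3 (0.0523), and AGPAT2 without parental replicate 1 (0.0508), the adjusted p standing in brackets. LPIN2, a second phosphatase of this family, averaged 31.2 ± 7.65 CPM in shHIF2A, 29.5 ± 5.08 in shJUNs, 19.8 ± 3.85 in shYAPTAZ and 25.9 ± 0.404 in parental cells and passed no test against parental cells.

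Among the genes that make and modify fatty acids, the desaturase FADS1 fell in all 3 lines and FADS2 and FADS3 in shJUNs and shYAPTAZ. FADS1, the delta-5 desaturase of polyunsaturated fatty acids (ENSG00000149485, chromosome 11, 61799627 to 61829318, minus strand), was at 197, 198 and 93.9 CPM in shHIF2A, 136, 125 and 117 in shJUNs, 119, 129 and 136 in shYAPTAZ, against 266, 359.9 and 395 in parental cells. Its knockdown libraries lay below all parental ones, and the fall was 2.09-fold in shHIF2A (log2 -1.06 ± 0.21 SE, adjusted p = 0.00133), 2.7-fold in shJUNs (log2 -1.43 ± 0.21 SE, adjusted p = 6.02e-05) and 2.65-fold in shYAPTAZ (log2 -1.41 ± 0.21 SE, adjusted p = 5.11e-05). FADS2, the delta-6 desaturase beside it (ENSG00000134824, chromosome 11, 61792980 to 61867354, plus strand), was at 223, 208 and 124 CPM in shHIF2A, 81, 85.5 and 64.4 in shJUNs, 127, 103 and 73.3 in shYAPTAZ, against 183, 243 and 266 in parental cells. It fell 2.998-fold in shJUNs (log2 -1.58 ± 0.22 SE, adjusted p = 3.06e-05) and 2.29-fold in shYAPTAZ (log2 -1.2 ± 0.22 SE, adjusted p = 0.000392), while the shHIF2A libraries overlapped the parental ones (adjusted p = 0.332). The difference between lines passed its own test: FADS2 was 2.41-fold lower in shJUNs than in shHIF2A (adjusted p = 0.000869) and 1.84-fold lower in shYAPTAZ than in shHIF2A (adjusted p = 0.0072, with overlap). FADS1 and FADS2 share 490 exonic bases on opposite strands, so reads there may be split between them.

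FADS3, the remaining gene of this cluster, was at 60.3, 77.4 and 103 CPM in shHIF2A, 57.7, 57.4 and 65 in shJUNs, 56.3, 41.7 and 47.7 in shYAPTAZ, against 92.8, 95.3 and 79.7 in parental cells. It fell 1.84-fold in shYAPTAZ (log2 -0.88 ± 0.20 SE, adjusted p = 0.00262) and 1.49-fold in shJUNs (log2 -0.57 ± 0.20 SE, adjusted p = 0.0468). The shJUNs call lay close to the threshold: it was lost without shHIF2A replicate 2 (0.0639), shJUNs replicates 1 (0.139), 2 (0.139) and 3 (0.0844), shYAPTAZ replicate 2 (0.0534) or parental replicates 1 (0.113) and 2 (0.14), or with no filter on low counts (0.0638) or counts thinned to 1 depth (0.207). SCD, the delta-9 desaturase that makes oleate (ENSG00000099194, chromosome 10, 100347233 to 100364826, plus strand), was at 518, 349 and 213 CPM in shHIF2A, 177, 163 and 87.2 in shJUNs, 479, 299.6 and 145 in shYAPTAZ, against 558, 645 and 689 in parental cells. Every knockdown library lay below the parental ones, but the shHIF2A and shYAPTAZ libraries spread 2.43-fold and 3.31-fold. The test was passed in shJUNs (4.44-fold lower, log2 -2.15 ± 0.47 SE, adjusted p = 0.0122). It was not passed in shHIF2A (adjusted p = 0.261, approximate normal 95% interval of the log2 change -1.70 to 0.08) or shYAPTAZ (0.137, -1.94 to -0.14). These 2 results turned on the fit. With only the 6 libraries compared, SCD passed in shHIF2A (adjusted p = 0.0209) and in shYAPTAZ (0.035), and without shYAPTAZ replicate 1 it passed in shYAPTAZ (0.0447). A fit with a term for the replicate number gave 0.0252 in shYAPTAZ and 0.0704 in shHIF2A. ELOVL6, which lengthens palmitate to stearate, was the synthesis gene higher in shYAPTAZ. It was at 33.3, 18.7 and 25.6 CPM in shHIF2A, 36.4, 29.1 and 25.3 in shJUNs, 64.9, 38.8 and 56.4 in shYAPTAZ, against 19.9, 21.4 and 30.5 in parental cells. The shYAPTAZ libraries lay above all parental ones (2.22-fold higher, log2 1.15 ± 0.28 SE, adjusted p = 0.00357), with adjusted p = 0.83 in shHIF2A and 0.439 in shJUNs.

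The enzymes upstream of palmitate gave few and fragile calls. FASN, the fatty acid synthase (ENSG00000169710), was at 149, 116 and 92.5 CPM in shHIF2A, 42.8, 63 and 51.4 in shJUNs, 38.6, 37.9 and 40.7 in shYAPTAZ, against 36.6, 57.9 and 98.4 in parental cells. It was 1.85-fold higher in shHIF2A (adjusted p = 0.0217), with overlapping libraries, and the call was lost without shHIF2A replicates 1 (0.11) and 2 (0.0561) or parental replicates 1 (0.113) and 2 (0.0879). The differences between lines were firmer: FASN was 3.05-fold lower in shYAPTAZ than in shHIF2A (adjusted p = 0.000233) and 2.28-fold lower in shJUNs than in shHIF2A (adjusted p = 0.00676, and 0.0538 without shJUNs replicate 1). ACACA, which makes malonyl-CoA, was 1.8-fold lower in shYAPTAZ at 26 ± 9.75 CPM, against 46.1 ± 9.8 in parental cells (SD, n = 3 each; adjusted p = 0.0276), with overlap. ACSS2, which makes acetyl-CoA from acetate, was 2.21-fold lower in shYAPTAZ at 7.59 ± 3.66 CPM, against 16.4 ± 3.67 (adjusted p = 0.0412). The ACACA call was lost without shYAPTAZ replicates 2 (0.131) and 3 (0.0883) or parental replicates 2 (0.111) and 3 (0.0685), or with only the 6 libraries compared (0.061), and the ACSS2 call without shHIF2A replicate 2 (0.0518), shYAPTAZ replicate 3 (0.183) or parental replicates 1 (0.136) and 3 (0.0731), or with no filter on low counts (0.0591), only the 6 libraries compared (0.101) or counts thinned to 1 depth (0.0599). ACLY, which makes acetyl-CoA from citrate, averaged 207 ± 18.5 CPM in shHIF2A, 162 ± 12.5 in shJUNs, 126 ± 17.5 in shYAPTAZ and 151 ± 30.4 in parental cells; it was 1.64-fold lower in shYAPTAZ than in shHIF2A (adjusted p = 0.00431) and passed no test against parental cells. ELOVL1, at 88.6 to 112 CPM over the group means, and ELOVL5, at 162 to 185, elongases of saturated and polyunsaturated chains, passed none either. ACACB, the mitochondrial counterpart of ACACA, reached at most 3.33 CPM and was not tested.

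A few genes spread widely inside a group, and 3 of them, chosen after their values were seen, are plotted. SREBF1, the transcription factor gene best known for driving fatty acid synthesis, was at 123, 119 and 60.6 CPM in shHIF2A, 81, 87.1 and 77.1 in shJUNs, 328, 171 and 48.9 in shYAPTAZ, against 93.9, 114 and 97.8 in parental cells (adjusted p = 0.992, 0.747 and 0.309). Its shYAPTAZ libraries covered a 6.7-fold range, beside a median range of 1.39-fold over the 36 genes in that group. G0S2 covered 3.5-fold in shHIF2A, 4.31-fold in shYAPTAZ and 4.23-fold in parental cells. The median range over the 36 genes was 1.51-fold in shHIF2A, 1.28-fold in shJUNs and 1.49-fold in parental cells. Some of this spread followed the replicate number. G0S2 was lowest in replicate 1 and highest in replicate 3 of all 4 groups, VLDLR was highest in replicate 1 and lowest in replicate 3 of all 4, and SCD was highest in replicate 1 and lowest in replicate 3 of the 3 knockdown lines but the other way round in parental cells. What a replicate number shares is not given in the labels, and the cause of this order was not tested.

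**Figure D4:**
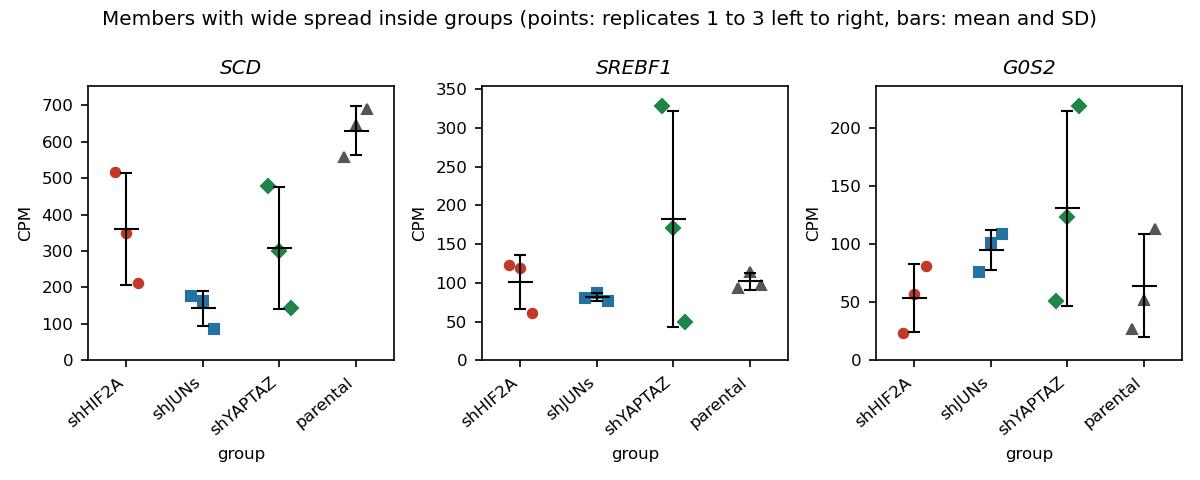
CPM of SCD, SREBF1 and G0S2 with 1 point per library and bars for the mean and SD of 3 libraries, in shHIF2A, shJUNs, shYAPTAZ and parental cells. The shYAPTAZ libraries reach from 48.9 to 328 CPM for SREBF1 and from 50.8 to 219 CPM for G0S2.

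Of the 3 acyl-CoA synthetase genes, ACSL3 fell in all 3 lines, ACSL1 rose in shJUNs and ACSL4 gave no call. ACSL3, an acyl-CoA synthetase of the endoplasmic reticulum and of young droplets (ENSG00000123983, chromosome 2, 222860942 to 222944639, plus strand), was at 151, 148 and 119 CPM in shHIF2A, 127, 111 and 108 in shJUNs, 110.3, 79.3 and 83.6 in shYAPTAZ, against 161, 214 and 244 in parental cells. It was 1.48-fold lower in shHIF2A (log2 -0.56 ± 0.18 SE, adjusted p = 0.029), 1.79-fold lower in shJUNs (log2 -0.84 ± 0.18 SE, adjusted p = 0.00178) and 2.27-fold lower in shYAPTAZ (log2 -1.19 ± 0.18 SE, adjusted p = 4.23e-05), with no overlap. The shHIF2A call was lost without shHIF2A replicates 2 (0.0569) and 3 (0.121) or parental replicates 2 (0.0796) and 3 (0.138). ACSL1, a synthetase of the endoplasmic reticulum and mitochondria, was at 30.1, 20.6 and 25.6 CPM in shHIF2A, 42.2, 61.2 and 53.6 in shJUNs, 23.2, 12.7 and 22.2 in shYAPTAZ, against 29, 29.2 and 24.6 in parental cells. It was 1.89-fold higher in shJUNs (log2 0.92 ± 0.26 SE, adjusted p = 0.0149), a call lost without shJUNs replicates 2 (0.0821) and 3 (0.0536) or parental replicate 3 (0.057), and gave adjusted p = 0.813 in shHIF2A and 0.18 in shYAPTAZ. ACSL1 was 2.71-fold lower in shYAPTAZ than in shJUNs (adjusted p = 0.000656). ACSL4, which prefers arachidonate, averaged 118 ± 29.9 CPM in shHIF2A, 83.8 ± 11.2 in shJUNs, 81.1 ± 26.7 in shYAPTAZ and 113 ± 14.3 in parental cells and passed no test against parental cells (adjusted p = 0.896, 0.164 and 0.0999).

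Of the 5 uptake genes only VLDLR and FABP5 were abundant enough to test. FABP5, a cytosolic carrier of fatty acids (ENSG00000164687, chromosome 8, 81280536 to 81284777, plus strand), was at 83.2, 75.2 and 118 CPM in shHIF2A, 99.2, 127 and 130.1 in shJUNs, 56.3, 131 and 221 in shYAPTAZ, against 18.1, 23.6 and 35.3 in parental cells. All knockdown libraries lay above the parental ones, and it was 3.55-fold higher in shHIF2A (log2 1.83 ± 0.40 SE, adjusted p = 0.00623), 4.58-fold higher in shJUNs (log2 2.2 ± 0.40 SE, adjusted p = 0.00174) and 5.32-fold higher in shYAPTAZ (log2 2.41 ± 0.40 SE, adjusted p = 0.00062). The shHIF2A call was lost without parental replicate 1 (0.0571). FABP5 has near-identical pseudogenes, so its counts are uncertain where reads fit several copies. VLDLR, the receptor for triglyceride-rich lipoproteins (ENSG00000147852, chromosome 9, 2621182 to 2660056, plus strand), was at 159.7, 134 and 80.9 CPM in shHIF2A, 182, 152 and 110.2 in shJUNs, 65.4, 48.1 and 32 in shYAPTAZ, against 113, 88.8 and 87.1 in parental cells. It was 2.01-fold lower in shYAPTAZ (log2 -1.01 ± 0.26 SE, adjusted p = 0.00777), with no overlap, and gave adjusted p = 0.316 in shHIF2A and 0.0906 in shJUNs. In shJUNs a fit of only the 6 libraries gave 0.0183, and a fit with a term for the replicate number gave 0.00746. VLDLR in shYAPTAZ was also 2.62-fold lower than in shHIF2A (adjusted p = 0.000894) and 3.09-fold lower than in shJUNs (adjusted p = 0.00021). CD36, the fatty acid translocase, had 9, 0 and 3 counts in shHIF2A, 2 over the 3 shYAPTAZ libraries and 0 in shJUNs and parental cells. FABP3 reached at most 1.36 CPM (3 counts in shYAPTAZ replicate 1), and LPL, the lipoprotein lipase, had no count in any library.

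None of the 6 mitochondrial oxidation genes was called in any of the 6 pairwise comparisons or in the test among the 4 groups by edgeR, and none by DESeq2 or limma-voom. Against parental cells, edgeR called 18.6% of all genes in shHIF2A, 19.3% in shJUNs and 25.3% in shYAPTAZ. So 6 genes are too few to set oxidation apart by a lack of calls. Of 26 other tested oxidation genes, 5, 7 and 8 were called in these lines. At an unadjusted p under 0.05, CPT2 passed in shHIF2A against parental cells and in shYAPTAZ against shHIF2A, ACADVL in shJUNs against shHIF2A, and CPT1A in shYAPTAZ against shJUNs. No more than 1 gene did so in any comparison. The median log2 change of the 6 genes was 0.12 in shHIF2A, 0.05 in shJUNs and -0.05 in shYAPTAZ. CPT1A, the outer membrane gate of mitochondrial import, was near the detection limit at 2.7 ± 2.96 CPM in shHIF2A, 4.65 ± 2.17 in shJUNs, 0.978 ± 0.73 in shYAPTAZ and 1.61 ± 0.434 in parental cells (SD, n = 3 each). Its 95% intervals were wide, -0.96 to 2.46 in shHIF2A, -0.15 to 3.17 in shJUNs and -2.73 to 1.10 in shYAPTAZ on the log2 scale. The group means of the other 5 lay between 28.6 and 146 CPM. CPT2, the inner membrane carnitine enzyme, averaged 43.3 ± 7.52 CPM in shHIF2A, 30.0 ± 2.96 in shJUNs, 28.8 ± 9.35 in shYAPTAZ and 28.6 ± 11.2 in parental cells; the 95% intervals against parental cells were 0.05 to 1.16 in shHIF2A, -0.48 to 0.63 in shJUNs and -0.56 to 0.57 in shYAPTAZ. ACADVL, the dehydrogenase of very long chains, averaged 41 ± 13.5 CPM in shHIF2A, 58.3 ± 3.71 in shJUNs, 56.3 ± 7.9 in shYAPTAZ and 46.8 ± 1.67 in parental cells. ACADM, that of medium chains, averaged 58.9 ± 12.8 CPM in shHIF2A, 46.7 ± 10.8 in shJUNs, 58.1 ± 4.04 in shYAPTAZ and 58.6 ± 5.07 in parental cells. HADHA, a subunit of the trifunctional protein, averaged 118 ± 13.3 CPM in shHIF2A, 97.5 ± 9.13 in shJUNs, 97.4 ± 4.45 in shYAPTAZ and 117 ± 17.2 in parental cells, with 95% intervals of -0.31 to 0.34 in shHIF2A, -0.58 to 0.06 in shJUNs and -0.59 to 0.06 in shYAPTAZ. HADHB, the other subunit, averaged 146 ± 11.5 CPM in shHIF2A, 128 ± 20.8 in shJUNs, 119 ± 18.9 in shYAPTAZ and 125 ± 25.8 in parental cells, with intervals of -0.13 to 0.57 in shHIF2A, -0.31 to 0.38 in shJUNs and -0.43 to 0.27 in shYAPTAZ. An interval that includes 0 does not show that the level was the same.

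The knockdown lines were also tested against one another; FASN, FADS2, LPIN1 and ELOVL6 were each called in at least 2 of these comparisons, as were MGLL, ACSL1 and VLDLR. In shYAPTAZ against shHIF2A, 2 of the 36 genes were higher and 9 lower, where 9.71% and 8.72% of all genes were called (18.4% in either direction); 5 of the 9 belong to fatty acid synthesis (ACLY, ACSS2, FASN, FADS2 and FADS3). In shJUNs against shHIF2A, 2 were higher (MGLL and ACSL1) and 4 lower (FASN, FADS2, LPIN1 and PLIN3), where 4.36% and 3.17% of all genes were called (7.53% in either direction). In shYAPTAZ against shJUNs, 1 was higher (ELOVL6) and 2 were lower (ACSL1 and VLDLR), where 7.87% and 8.27% of all genes were called (16.1% in either direction). Libraries did not overlap for 14 of the 36 genes in the first of these comparisons, 14 in the second and 11 in the third, beside 32.2%, 31.2% and 33.3% of all genes. Without shHIF2A replicate 1, 7 genes in place of 11 were called in shYAPTAZ against shHIF2A. Without any 1 of the shJUNs replicates, 3 in place of 6 were called in shJUNs against shHIF2A. LPIN1 was 2.52-fold lower in shYAPTAZ than in shHIF2A (adjusted p = 0.0132, with overlap) and 2.29-fold lower in shJUNs than in shHIF2A (adjusted p = 0.043). The LPIN1 call in shYAPTAZ was lost without shHIF2A replicates 1 (0.0545) and 2 (0.0517) or shYAPTAZ replicate 2 (0.059), and that in shJUNs without shHIF2A replicates 1 (0.149) and 2 (0.142), shJUNs replicates 1 (0.103), 2 (0.105) and 3 (0.162), shYAPTAZ replicate 2 (0.0532) or parental replicates 2 (0.0549) and 3 (0.0616). ELOVL6 was 2.05-fold higher in shYAPTAZ than in shHIF2A (adjusted p = 0.01, and 0.0648 without shHIF2A replicate 2) and 1.76-fold higher than in shJUNs (adjusted p = 0.0413), the last lost without shJUNs replicates 1 (0.0517), 2 (0.123) and 3 (0.172) or shYAPTAZ replicates 1 (0.141) and 3 (0.0893), or with counts thinned to 1 depth (0.113).

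Further calls between lines were of smaller size or less firm. ACSL1 was 2.05-fold higher in shJUNs than in shHIF2A (adjusted p = 0.0157), lost without shHIF2A replicate 2 (0.0885) or shJUNs replicates 2 (0.0892) and 3 (0.0609). ACSL3 was 1.54-fold lower in shYAPTAZ than in shHIF2A (adjusted p = 0.0182), lost without shHIF2A replicates 1 (0.0699) and 2 (0.0772) or shYAPTAZ replicate 2 (0.101). FADS3 was 1.65-fold lower in shYAPTAZ than in shHIF2A (adjusted p = 0.015), lost without shHIF2A replicate 3 (0.113) or shYAPTAZ replicate 2 (0.0847), or with only the 6 libraries compared (0.06). ACSS2 was 2.28-fold lower in the same comparison (adjusted p = 0.0432), lost without any 1 of 9 libraries: shHIF2A replicates 1 (0.0642), 2 (0.153) and 3 (0.0651), shJUNs replicates 1 (0.0548), 2 (0.0554) and 3 (0.0547), shYAPTAZ replicate 3 (0.173) or parental replicates 2 (0.0509) and 3 (0.0509), or with no filter on low counts (0.0594), only the 6 libraries compared (0.105) or counts thinned to 1 depth (0.0661).

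**Figure D5:**
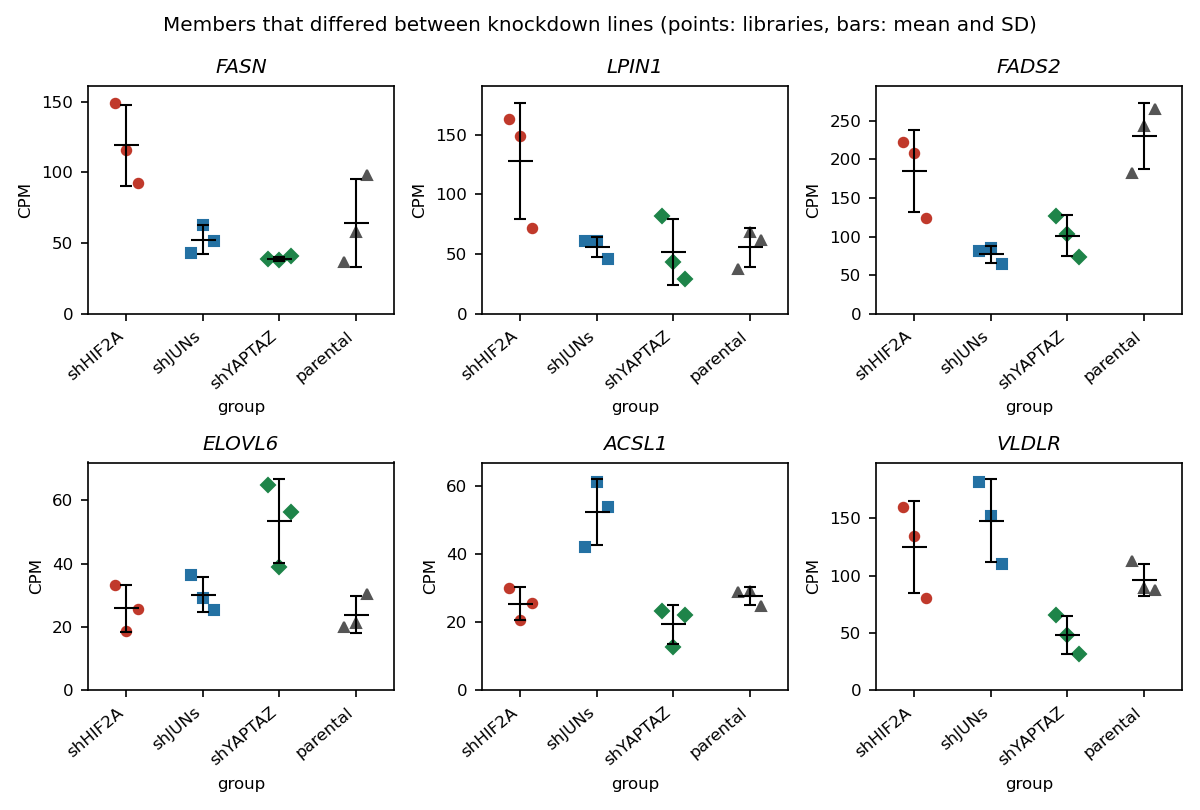
CPM of 6 genes called between knockdown lines, with 1 point per library and bars for the mean and SD of 3 libraries, in shHIF2A, shJUNs, shYAPTAZ and parental cells. FASN and LPIN1 stand highest in shHIF2A, ACSL1 in shJUNs and ELOVL6 in shYAPTAZ, while VLDLR is lowest in shYAPTAZ and FADS2 lowest in shJUNs.

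A wider list of 109 genes of the same pathways, 73 of them tested, gave 8 higher and 3 lower genes in shHIF2A, 8 higher and 6 lower in shJUNs, and 14 higher with 9 lower in shYAPTAZ, to be read against the shares of all genes given above. Among 19 tested synthesis genes, INSIG1, which holds the sterol-regulated factors in the endoplasmic reticulum, set shHIF2A apart from shJUNs and shYAPTAZ, whose libraries overlapped each other. It was at 637, 662 and 498 CPM in shHIF2A, 168, 138 and 121 in shJUNs, 145, 182 and 156 in shYAPTAZ, against 184, 344 and 443 in parental cells. It was 1.85-fold higher in shHIF2A (adjusted p = 0.011), 2.27-fold lower in shJUNs (0.00146) and 2.01-fold lower in shYAPTAZ (0.00359), and 4.21-fold lower in shJUNs than in shHIF2A (1.99e-05), none of them with overlap. HSD17B12, an enzyme of chain elongation, was 2.74-fold higher in shJUNs (1.80e-05) and 1.82-fold higher in shYAPTAZ (0.00262). SCD5, the second human delta-9 desaturase, had 184 counts over the shYAPTAZ libraries against 1 over the parental ones, a scaled ratio of 193 (95% exact binomial interval 34.2 to 7666, counting error only). The parental count lay in replicate 3. The fitted log2 change in shYAPTAZ was 7.16, and 6.46 with limma-voom, 8.44 in counts thinned to 1 depth and 9.07 without parental replicate 3. In shHIF2A it had 12 counts, a ratio of 12.6 (1.86 to 537.2), and its call there (adjusted p = 0.0495) was lost without shHIF2A replicates 1 (0.0982) and 3 (0.151), shJUNs replicates 1 (0.0535), 2 (0.0536) and 3 (0.0532), shYAPTAZ replicates 1 (0.0549), 2 (0.0768) and 3 (0.0619) or parental replicates 1 (0.134) and 2 (0.143), or with RLE size factors (0.0505), no filter on low counts (0.0664), a filter of 10 CPM in 3 libraries (0.0563) or limma-voom (0.192). Its fitted log2 change there was 3.27, and 4.80 in thinned counts and 5.18 without parental replicate 3, both called.

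Of 14 tested genes of droplet structure and esterification, none was called in shHIF2A or shJUNs by edgeR, DESeq2 or limma-voom; at an unadjusted p under 0.05 there were 0 in shHIF2A and 2 in shJUNs (AGPAT4 and SOAT1). In shYAPTAZ 1 was higher and 3 were lower (28.6% of the 14, beside 25.3% of all genes). SOAT1, which esterifies cholesterol for storage, was 1.85-fold lower there (adjusted p = 0.000757), AGPAT3 1.61-fold lower (0.00932) and AUP1, a droplet surface protein, 1.51-fold lower (0.0104; lost without shYAPTAZ replicate 2 (0.0601) or parental replicate 2 (0.0549)). The 26 other tested genes of oxidation held calls in every line, 3 higher and 2 lower in shHIF2A, 4 higher and 3 lower in shJUNs, and 6 higher with 2 lower in shYAPTAZ. These calls were 19.2%, 26.9% and 30.8% of the 26, beside 18.6%, 19.3% and 25.3% of all genes in the same lines. HADH, the short-chain dehydrogenase of the mitochondrion, was 1.72-fold lower in shHIF2A (0.0076, and 0.0506 without shHIF2A replicate 2) and 1.96-fold lower in shJUNs (0.00127). PPARGC1A, the co-activator of mitochondrial genes, had 121 counts over shHIF2A, 56 over shJUNs and 3 over shYAPTAZ, against 4 over parental libraries, with scaled ratios of 31.7 (12.1 to 118) in shHIF2A, 11 (4.05 to 41.6) in shJUNs and 0.787 (0.115 to 4.65) in shYAPTAZ. The shJUNs call (adjusted p = 0.0155) was lost without shJUNs replicate 3 (0.0579) or parental replicates 2 (0.0577) and 3 (0.0505), or with limma-voom (0.0575). In counts thinned to 1 depth the log2 change was 4.22 in place of 4.83 in shHIF2A and 2.61 in place of 3.29 in shJUNs, both called.

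Of 14 other tested genes of uptake and activation, 2 were higher and 0 lower in shHIF2A, 2 higher and 1 lower in shJUNs, and 4 higher with 1 lower in shYAPTAZ. These calls were 14.3%, 21.4% and 35.7% of the 14, beside 18.6%, 19.3% and 25.3% of all genes in the same lines. LIPG, the endothelial lipase, had 137 counts over shYAPTAZ against 7 over parental libraries, a scaled ratio of 20.5 (9.70 to 52.0), and 46 counts in shJUNs, a ratio of 5.14 (2.31 to 13.5). The shYAPTAZ call (adjusted p = 0.000176) held without any 1 library, with a log2 change of 4.32 and of 3.73 without parental replicate 2, whereas the shJUNs call (0.0379) was lost without shJUNs replicates 1 (0.0814) and 3 (0.114), shYAPTAZ replicates 2 (0.0523) and 3 (0.0504) or parental replicates 1 (0.0571) and 2 (0.134), or with limma-voom (0.062) or counts thinned to 1 depth (0.1). DBI, the acyl-CoA binding protein, was 1.44-fold higher in shHIF2A (0.00199) and 1.29-fold higher in shYAPTAZ (0.0185), the shYAPTAZ call lost without shYAPTAZ replicate 2 (0.0674) or parental replicates 1 (0.0681) and 2 (0.0587), or with only the 6 libraries compared (0.0892). None of the calls against parental cells named so far from the wider lists had overlapping libraries.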

How the data were processed

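The authors deposited raw counts per gene for 12 BRB-seq libraries. Per the submitters' processing notes, reads went through Trim Galore and STAR on hg38; not given in the sources used here are the counting program, its strand setting, the annotation, tool versions and any collapsing of molecular identifiers. Coordinates are those of the deposited table (hg38).

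Of 62705 lines, 3 held 1 gene broken over several lines, which was left out. The test was edgeR 4.0.16 (R 4.3.3), with filterByExpr by group, TMM scaling, and 1 robust quasi-likelihood fit of all 12 libraries with a mean per group (12301 genes, common dispersion 0.0628). P-values were adjusted by Benjamini-Hochberg over all 12301 genes, with a threshold of 0.05. The SE is the log2 change divided by the square root of F. A 95% interval of a log2 change is the normal one from that SE. It leaves out the limited degrees of freedom of the test, so it is narrower than an interval matched to the test. At these totals (2272459 to 4469956) 3 counts in 1 library equal 0.67 to 1.32 CPM before TMM scaling, so low genes are imprecise. Intervals of count ratios (95%, exact binomial) cover counting error only.

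Groups came from the labels. Alternatives were RLE size factors, 2 other filters, DESeq2 1.42.0, limma-voom (limma 3.58.1), 6-library fits, thinning to 2272459 counts, a replicate block and leaving out each library. The genes, their roles and the wider lists were chosen with earlier results of these data known. Described in full were, per role, up to 5 genes called against parental cells with the smallest p and a mean of at least 10 CPM in some group; of each wider list, up to 3 were named by the same rule. The values of some genes of the wider lists are not reported here. FASN, ACACA, ACSS2 and other genes outside that rule were named after their values were seen. Promoters came from RefSeq.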

Additional observations from a re-analysis of the deposited data

How the results depend on the processing

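The alternatives were followed for 52 genes, not all of them described above, each chosen because it had a call. They are listed genes called against parental cells with a mean of at least 10 CPM in some group, and members called between lines. Of their 312 pairs with the 6 comparisons, 130 were called, a share raised by this choice. Of these, 69 kept the call under every one of 20 alternatives and 61 lost it under at least 1. Of the 182 uncalled pairs, 37 passed under at least 1. No call changed direction. Without 1 library, the count of genes higher than in parental cells ranged 3 to 7 in shHIF2A (6 with all libraries), 2 to 4 in shJUNs (3) and 3 to 4 in shYAPTAZ (3). Counts of lower genes ranged 6 to 7, 8 to 9 and 9 to 13 in the same order. Between lines they ranged 3 to 7 for shJUNs against shHIF2A, 7 to 13 for shYAPTAZ against shHIF2A and 2 to 4 for shYAPTAZ against shJUNs, and among the 4 groups 15 to 24. These fits hold fewer libraries by construction. Over all genes, 772 in place of 1211 were higher in shHIF2A without parental replicate 1, and in shJUNs 846 in place of 1271 were higher and 672 in place of 1099 lower without shJUNs replicate 3. For shJUNs against shHIF2A the count was 471 to 595 in place of 926 without any 1 of 5 of their libraries and 1621 in a fit of these 6 libraries; for shYAPTAZ against shJUNs it was 1310 and 1299 in place of 1985 without shJUNs replicates 1 and 3.

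The labels give all groups the replicate numbers 1 to 3. Correlations of same-numbered deviations ran from -0.0095 to 0.221, with 5 of 18 over 0.1. The main fit held no replicate block, because the labels call the replicates technical and name nothing that a number shares. The number was not without structure: pairs of replicates 1 (0.0407 to 0.172) and of replicates 3 (0.0401 to 0.221) were all positive, those of 1 with 3 (-0.192 to -0.0314) all negative, and 8 of 12 libraries correlated best with one of their own number. This is a hint from the data, not from the design. With the replicate block, 5 genes in place of 3 were higher in shJUNs; the cause was not tested. The other counts of genes stayed within 1.5 times of their main values under the block. With the block, SCD had an adjusted p of 0.0252 in shYAPTAZ and 0.0704 in shHIF2A, and VLDLR 0.00746 in shJUNs. The main edgeR fit gave adjusted p = 0.137, 0.261 and 0.0906, so the block turned SCD in shYAPTAZ and VLDLR in shJUNs into calls.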

Other observations

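Of 2 thiolase genes, chosen after their values were seen, ACAA1 rose and ACAA2 fell in shYAPTAZ; in shJUNs ACAA1 was called and ACAA2 was not, and in shHIF2A ACAA2 was called and ACAA1 was not. ACAA1, the peroxisomal thiolase, was at 24.1, 22.5 and 14.4 CPM in shHIF2A, 37.3, 39.5 and 27.7 in shJUNs, 24.1, 36.3 and 33.7 in shYAPTAZ, against 12.9, 16.3 and 17 in parental cells. It was 2.25-fold higher in shJUNs (edgeR adjusted p = 0.00516) and 2.04-fold higher in shYAPTAZ (0.01). ACAA2, the mitochondrial thiolase, was at 20.0, 24.6 and 9.81 CPM in shHIF2A, 32.6, 48.9 and 45.8 in shJUNs, 16.3, 27.1 and 17.1 in shYAPTAZ, against 53, 39.1 and 34.2 in parental cells. It was 2.3-fold lower in shHIF2A (0.009; lost without shHIF2A replicate 3 (0.0516)) and 2.08-fold lower in shYAPTAZ (0.0149; lost without parental replicate 1 (0.0755)). ECHS1, the mitochondrial enoyl-CoA hydratase, was 2.24-fold lower in shYAPTAZ than in shHIF2A (6.20e-05) and 1.98-fold lower than in shJUNs (0.000459). It was at 75.2 ± 17.4 CPM in shYAPTAZ, 169 ± 16.5 in shHIF2A, 149 ± 11 in shJUNs and 110 ± 14.2 in parental cells (SD, n = 3 each). Against parental cells it was called higher in shHIF2A (log2 0.62) and lower in shYAPTAZ (log2 -0.54), each call lost without certain single libraries. PPARD, a receptor for fatty acids, was 4.39-fold higher in shYAPTAZ than in shJUNs (0.00132), at 22 ± 1.93 CPM in shYAPTAZ and 4.94 ± 1.48 in shJUNs. Against parental cells PPARD was called lower in shJUNs (log2 -1.58; edgeR adjusted p = 0.0628 without shJUNs replicate 2). In shYAPTAZ against parental cells it did not reach an unadjusted p under 0.05.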
